A study of Mus musculus with 6 samples.

Results

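A set of 10 genes of de novo fatty acid synthesis, the making of fatty acids from acetyl-CoA, were followed across all 6 RNA-seq libraries of the study. They are Acly, Acaca, Acacb, Fasn, Elovl6, Scd1, Scd2 and Me1, which encode enzymes, and Srebf1 and Mlxipl, which encode transcription factors. They were chosen by name for their place in the pathway, and 10 of 10 had a row among the 25078 genes of the count and RPKM tables. The cells were Hepa1-6, an established mouse hepatoma line, grown in medium with serum. The wt library came from cells that had received no vector. The 2 scr libraries, 25-2 and 50-1, came from cells transduced with lentivirus carrying a scramble vector. The 3 knockdown libraries, 25-3, 50-2 and 50-5, came from cells transduced with lentivirus carrying midnolin shRNA, and their titles carry the letters KO although the treatment is an shRNA. Transduced cells were selected with puromycin, and single-cell-derived colonies were isolated by limiting dilution, so a library may stand for 1 clone. The labels name no clones, but values in the study's own gene list equal those of knockdown 50-2 for its clone sh1 and of 25-3 for sh2. Nothing in the labels says if scr 25-2 and 50-1 are different clones, and p-values measure only the spread between these libraries.

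In the pathway, Acly splits citrate to give acetyl-CoA in the cytosol, the acetyl-CoA carboxylases Acaca and Acacb turn it into malonyl-CoA, and Fasn assembles palmitate. Elovl6 lengthens palmitate, the desaturases Scd1 and Scd2 place a double bond in the product, and Me1 supplies NADPH, the reductant that the synthase consumes. In liver the genes are known to be driven by SREBP-1, the product of Srebf1, after insulin, and by ChREBP, the product of Mlxipl, after carbohydrate, and lipid synthesis is often raised in hepatocellular carcinoma.

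Library totals ranged from 25586301 to 33119710 counted reads, and the ribosomal transcript Rn45s made up 10.1% to 13.1% of them. Midn, the targeted gene, had an RPKM of 59.6 and 50.8 in the scr libraries and of 20.3, 21.8 and 22.1 in the knockdown libraries, and fell by 1.38 on the log2 scale (FDR 0.00777 and standard error 0.133 in edgeR's quasi-likelihood test, n = 3 against 2 libraries). RPKM is the read count per length of exon and per library size, which the authors scaled with TMM. Of the hepatocyte markers, Alb lay between 1877 and 2804 RPKM in wt and scr and between 20.9 and 335.8 in knockdown, while Hnf4a lay between 11.04 and 33.9 in wt and scr and between 29.6 and 65.5 in knockdown, and neither passed the test. Apob, of the same list, lay the other way, at 3.00 and 1.07 RPKM in scr and at 52.2, 37.8 and 4.37 in knockdown. Serpina1b, at 0 in both scr libraries and at 2.33, 1.33 and 0.424 RPKM in knockdown, was the 1 hepatocyte marker called, and it entered the test through knockdown libraries alone. The summed RPKM of the 10 hepatocyte markers, to which Alb, Afp and Fgb contributed most in wt and scr, was 4323 in wt, 2350 and 3812 in scr and 97.0 to 716 in knockdown, Serpina1a was at 0 in every library, and the part of this difference in the results below was not tested. Of the 5 fibroblast markers, Col1a1, Col1a2 and Lum were at or near 0 and Dcn was at 409 RPKM or more in every library. Pdgfra, the fifth, was at 0.308 and 0.167 RPKM in scr, 2.69, 1.90 and 1.58 in knockdown and 1.93 in wt, and it was called, having entered the test through knockdown libraries alone. The summed level of 5 immune markers, nearly all Cd68, was 3.14 and 4.96 RPKM in scr, 6.40 to 9.46 in knockdown and 3.60 in wt. That of 5 endothelial markers was 0.198 and 0.248 in scr, 0.375 to 0.529 in knockdown and 2.95 in wt, and the part of these differences in the results was not tested either. In bulk RNA, fewer cells of a kind and less RNA per cell cannot be told apart.

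None of the 9 genes that could be tested was differentially expressed after knockdown of midnolin. Knockdown and scr libraries overlapped for Fasn, Acaca, Scd1, Scd2 and Elovl6. Their mean RPKM in knockdown was 97.0%, 91.2%, 114%, 89.4% and 124% of the scr mean, in that order. The mean was 77.15% of it for Acly and 68.4% for Me1. Me1, Srebf1, Acly and Mlxipl lay lower in all 3 knockdown libraries than in both scr libraries, as did 24.5% of all genes tested. None of them passed the test, and Mlxipl entered it through scr 50-1 alone. Of the 9 genes that passed an RPKM of 1 in any library compared, 0 reached an FDR under 0.05 together with a 1.5-fold difference in the edgeR quasi-likelihood test (3 knockdown against 2 scr libraries), and of all 11577 genes tested 10.6% did, a share at which 0 of 9 does not set these genes apart. At an unadjusted p under 0.05 there were 4 of the 9, Mlxipl among them, and 3641 of 11577 genes, and both DESeq2 and limma also called 0. With an RPKM minimum of 5, which leaves out Mlxipl, 3 of 8 had such a p and their median log2 fold change was -0.16. The median was -0.17 for the 9 genes and -0.01 for all genes tested, and the median absolute log2 fold change was 0.30 and 0.36. The median of the members was -0.38 without scr 25-2 and 0.15 without scr 50-1, where Mlxipl dropped out of the test. Acacb was left out of the test because it stayed under an RPKM of 1 in every library.

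**Figure D1:**
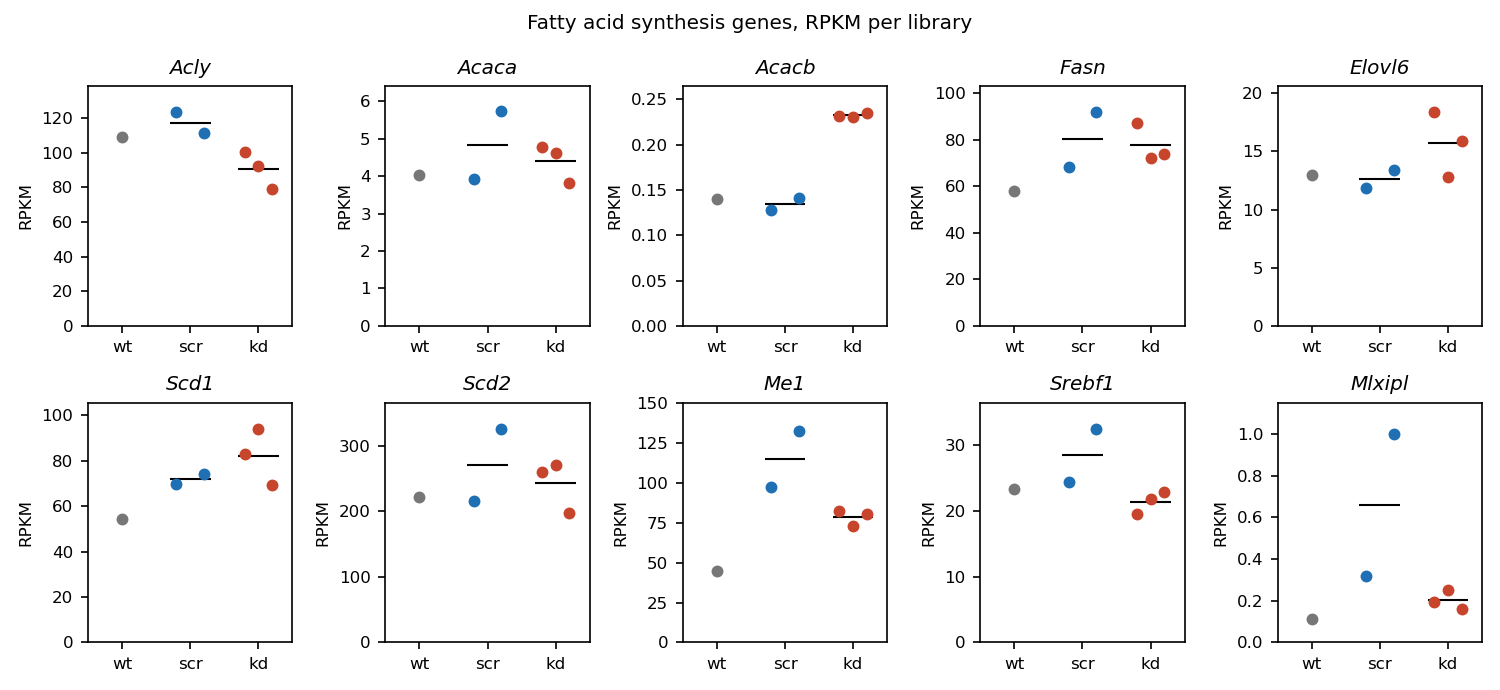
RPKM of the 10 fatty acid synthesis genes in each library, with axes from 0. Grey points are wt, blue points the scr libraries (25-2, 50-1) and red points the knockdown libraries (kd, in the order 25-3, 50-2, 50-5), and black lines are group means. The knockdown points overlap the scr points for Acaca, Fasn, Elovl6, Scd1 and Scd2, lie below them for Acly, Me1, Srebf1 and Mlxipl, and lie above them for Acacb, which is under 0.25 RPKM everywhere.

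Per length of exon, Scd2 was the most abundant of the 10 transcripts in all 6 libraries, at 35.1% to 42.1% of their summed RPKM. Acly, Fasn, Scd1 and Me1 followed at ranks 2 to 5, in an order that varied from library to library except that Acly exceeded Fasn in all 6. In knockdown their ranges were 79.1 to 100.5 RPKM for Acly, 72.2 to 87.1 for Fasn, 69.3 to 94.0 for Scd1 and 73.1 to 82.2 for Me1, so that the 4 ranges overlapped. Srebf1, Elovl6 and Acaca held ranks 6, 7 and 8 in every library, and Acacb and Mlxipl came last. The summed RPKM of the 10 genes was 615 and 788 in scr, 543 to 656 in knockdown and 529 in wt.

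The first enzyme, Acly (mm10 chromosome 11, positions 100476352 to 100528000), stood at 123.7 and 111 RPKM in scr 25-2 and 50-1 and of 100.5, 92.1 and 79.1 in knockdown 25-3, 50-2 and 50-5. All knockdown libraries were below both scr libraries, as was true of 24.5% of all genes tested, and wt was at 108.8. The log2 fold change of Acly was -0.39 (95% interval -0.76 to -0.02, standard error 0.149, FDR 0.144 in edgeR's quasi-likelihood test).

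Acaca, the carboxylase that serves synthesis in the cytosol (chromosome 11, 84195438 to 84401651), had an RPKM of 3.93 and 5.73 in scr and of 4.78, 4.62 and 3.82 in knockdown, with wt at 4.04. The groups overlapped, and the log2 fold change was -0.15 (95% interval -0.65 to 0.36, standard error 0.203, FDR 0.666). Acacb, the isoform known from the mitochondrial surface, where its malonyl-CoA restrains fatty acid oxidation (chromosome 5, 114165518 to 114250758), had 32 and 34 counts in scr, 62, 63 and 66 in knockdown and 31 in wt. These counts amounted to an RPKM of 0.128 and 0.141 in scr and of 0.231, 0.230 and 0.235 in knockdown, so that all 3 knockdown libraries lay above both scr libraries, as 25.7% of all genes tested did. When no filter on low values was applied, the log2 fold change of Acacb was 0.78 (FDR 0.229 over 18673 genes and standard error 0.346 in edgeR's quasi-likelihood test). Acacb was 3.16% and 2.40% of the summed RPKM of both carboxylases in scr, 4.62% to 5.80% in knockdown and 3.35% in wt.

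Fasn, the synthase itself (chromosome 11, 120805958 to 120824547), reached 68.3 RPKM in scr 25-2 and 91.9 in scr 50-1. In knockdown 25-3, 50-2 and 50-5 it was at 87.1, 72.2 and 73.9, all within the range of the scr libraries, while wt was below both at 57.9. The log2 fold change was -0.06 (FDR 0.864 and standard error 0.178 in edgeR's quasi-likelihood test), and its 95% interval of -0.50 to 0.39 lay inside the 1.5-fold limits of 0.58 on the log2 scale in either direction. Fasn received 14995 to 27334 counts per library, so counting error was small beside the difference between the scr libraries.

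Among the genes that modify palmitate, Elovl6 (chromosome 3, 129532386 to 129638493) had an RPKM of 11.8 and 13.4 in scr, 18.4, 12.8 and 15.9 in knockdown and 13.0 in wt. Knockdown 25-3 and 50-5 were above both scr libraries and knockdown 50-2 was between them. The log2 fold change was 0.30 (95% interval -0.17 to 0.77, standard error 0.189, FDR 0.326).

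Scd1, the main stearoyl-CoA desaturase of liver (chromosome 19, 44394450 to 44407709), and Scd2, known from brain and from developing tissue (chromosome 19, 44293676 to 44306862), lie 87.6 kb apart, with Scd4 between them. Scd1 had an RPKM of 69.7 and 74.1 in scr, 83.0, 94.0 and 69.3 in knockdown and 54.4 in wt. Its log2 fold change was 0.18 (FDR 0.488 and standard error 0.160), with a 95% interval of -0.22 to 0.57, and besides Fasn it was the only tested gene of the 10 whose interval lay inside the 1.5-fold limits. Scd2 had an RPKM of 215.9 and 325.9 in scr, 259.9, 269.7 and 197 in knockdown and 222 in wt, a log2 fold change of -0.17 (95% interval -0.74 to 0.40, standard error 0.230, FDR 0.648). For both desaturases the knockdown range overlapped the scr range. Scd2 exceeded Scd1 in every library, and its share of their summed RPKM was 75.6% and 81.5% in scr, 75.8%, 74.2% and 74.0% in knockdown and 80.35% in wt. The spread of this share between the scr libraries was wider than the distance between the group means of 78.5% and 74.7%. Scd1 and Scd2 are close paralogs, and how reads that match both were counted is not stated in the sources used here.

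Me1, cytosolic malic enzyme (chromosome 9, 86581363 to 86695914), had the smallest FDR of the 9 tested members. Its RPKM was 97.3 in scr 25-2 and 132 in scr 50-1, and 82.2, 73.1 and 80.3 in knockdown 25-3, 50-2 and 50-5. In wt it was 44.8, below every other library and 39.0% of the scr mean. The log2 fold change in knockdown was -0.56 (95% interval -0.97 to -0.15, standard error 0.167, FDR 0.0849 in edgeR's quasi-likelihood test), short of both thresholds. It was -0.23 with an FDR of 0.701 when wt was added to the scr group, and -0.75 with an FDR of 0.0255 when scr 25-2 was left out, a fit with 1 scr library in which the spread comes from the knockdown libraries alone and scr 50-1 is assumed to vary like them. Without scr 50-1 instead it was -0.32 (FDR 0.201). DESeq2 gave -0.56 with an FDR of 0.0195, short of the fold threshold.

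Of the regulators, Srebf1 (chromosome 11, 60199084 to 60222581) had an RPKM of 24.4 and 32.5 in scr, 19.6, 21.8 and 22.8 in knockdown and 23.3 in wt. All knockdown libraries lay below both scr libraries, with a log2 fold change of -0.42 (95% interval -0.83 to -0.01, standard error 0.166, FDR 0.151), which passed both thresholds only in the same fit with scr 50-1 as the 1 control (-0.60, FDR 0.0459, edgeR quasi-likelihood test). With scr 25-2 as the 1 control it was -0.20 (FDR 0.41). The row overlaps Rai1 on the opposite strand, and whether reads were counted by strand is not given in the sources used here, so reads from the shared stretch cannot be told apart. The gene is known to give SREBP-1a and SREBP-1c from separate starts, and counts per gene cannot tell these apart.

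Mlxipl (chromosome 5, 135089890 to 135138201) was barely detected, with 35 and 106 counts in scr 25-2 and 50-1, 23, 30 and 20 in knockdown 25-3, 50-2 and 50-5, and 11 in wt. Its RPKM was 0.320 and 1.00 in scr, 0.196, 0.250 and 0.163 in knockdown and 0.114 in wt, so it entered the test through scr 50-1 alone. The log2 fold change was -1.71 (95% interval -3.05 to -0.36, standard error 0.545, FDR 0.0983). Since the library that let Mlxipl into the test is the one where it was highest, its direction follows in part from the filter and is given as a description. The scr libraries differed 3.13-fold in RPKM from each other, and the scr mean was 3.26-fold the knockdown mean.

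**Figure D2:**
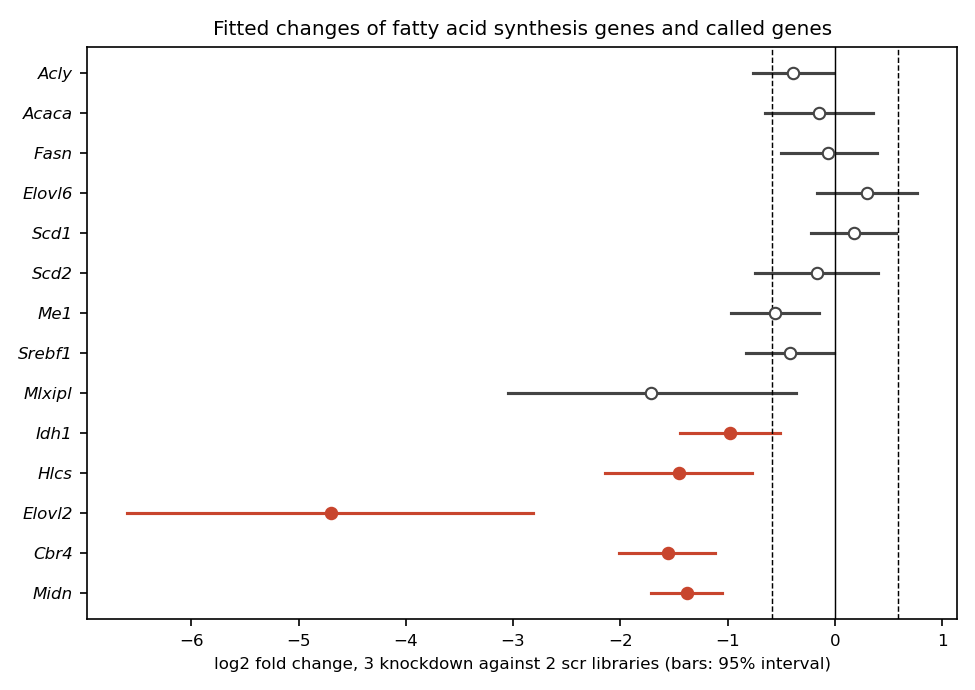
Log2 fold change of the 9 tested fatty acid synthesis genes, of the 4 related genes that passed the test and of Midn, with 95% intervals as bars, dashed lines at a fold change of 1.5 and filled red points for genes that passed both thresholds (3 knockdown against 2 scr libraries). The intervals of Acly, Me1, Srebf1 and Mlxipl lie below 0 without an FDR under 0.05, and those of Fasn and Scd1 lie between the dashed lines.

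The distance between the scr libraries varied from gene to gene, from 1.06-fold in Scd1, 1.098-fold in Acacb, 1.11-fold in Acly and 1.14-fold in Elovl6 to 3.13-fold in Mlxipl. Scr 50-1 was above scr 25-2 in 9 of the 10 genes, Acly being the exception, compared with 51.6% of 11424 genes with a value in both. In 3 of the 9 tested genes it exceeded the difference between the groups. For these, Acaca, Fasn and Scd2, the higher scr library was 1.46-fold, 1.35-fold and 1.51-fold the lower one, more than the fold between the scr and knockdown means (1.097, 1.03 and 1.12). The sign of their log2 fold change turned with the scr library kept. Without scr 25-2 it was -0.38 for Acaca, -0.24 for Fasn and -0.43 for Scd2, and without scr 50-1 it was 0.15, 0.17 and 0.15, with none called. Among all genes the median absolute log2 difference between the scr libraries was 0.33, and among the 9 tested members it was 0.43.

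The wt library, a single library that allows no test, was below both scr libraries in 6 of the 10 genes and between them in the other 4, while it was below both in 29.1% of 11647 genes. Me1 and Mlxipl were at least 1.5-fold lower in wt than the scr mean, at 39.0% and 17.2% of it, as were 8.64% of those genes. For Acacb, Fasn, Scd1, Me1 and Mlxipl wt was also below all 3 knockdown libraries, as it was for 36.5% of all genes. The wt and knockdown comparisons share the same scr libraries.

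To show the sequence upstream of members at and below the scr level, windows before annotated RefSeq starts (GRCm38.p6) are given for Fasn, at scr level in knockdown, and for Acly, Me1, Srebf1 and Mlxipl, which lay lower. A further window of Me1 and of Srebf1, with no match in these bases, is not printed. They were searched on both strands for the sterol regulatory element TCACNCCAC, which SREBP binds, the E-box CACGTG, the CCAAT box bound by NF-Y and the GC box GGGCGG bound by Sp1, and matches are in capitals. Each run is the 150 bases before the start, 5′ to 3′ in the direction of the gene.
Fasn, chr11:120824548-120824697, minus strand: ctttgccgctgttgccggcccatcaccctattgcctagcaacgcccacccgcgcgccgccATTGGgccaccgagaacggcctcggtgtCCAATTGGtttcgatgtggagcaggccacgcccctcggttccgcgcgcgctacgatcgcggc
Acly, chr11:100528001-100528150, minus strand: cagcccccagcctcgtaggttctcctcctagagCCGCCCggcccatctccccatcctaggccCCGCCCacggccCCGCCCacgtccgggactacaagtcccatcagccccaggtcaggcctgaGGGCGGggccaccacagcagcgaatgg
Me1, chr9:86695915-86696064, minus strand: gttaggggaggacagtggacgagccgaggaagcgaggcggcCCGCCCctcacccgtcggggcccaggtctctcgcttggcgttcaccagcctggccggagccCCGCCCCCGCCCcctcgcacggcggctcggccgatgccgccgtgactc
Srebf1, chr11:60210472-60210621, minus strand: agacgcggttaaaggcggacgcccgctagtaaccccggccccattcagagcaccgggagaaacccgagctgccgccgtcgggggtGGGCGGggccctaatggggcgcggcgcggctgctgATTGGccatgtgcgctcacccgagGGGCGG
Srebf1, chr11:60220628-60220777, minus strand: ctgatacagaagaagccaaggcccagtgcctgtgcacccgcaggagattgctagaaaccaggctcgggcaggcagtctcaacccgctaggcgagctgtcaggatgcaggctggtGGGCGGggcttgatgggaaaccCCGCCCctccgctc
Mlxipl, chr5:135089740-135089889, plus strand: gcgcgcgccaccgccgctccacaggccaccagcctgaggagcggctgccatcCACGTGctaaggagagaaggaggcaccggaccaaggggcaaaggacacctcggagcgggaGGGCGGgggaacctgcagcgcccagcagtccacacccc
Mlxipl, chr5:135106741-135106890, plus strand: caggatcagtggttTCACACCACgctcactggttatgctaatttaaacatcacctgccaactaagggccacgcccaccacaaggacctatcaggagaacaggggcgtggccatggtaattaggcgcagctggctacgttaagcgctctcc

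Of the 10 genes, 8 had 12 such windows, since Me1 and Mlxipl had 2 starts and Srebf1 had 3. Scd1 and Scd2 had no entry in the promoter set used. The windows of Acaca and Elovl6, whose knockdown libraries also overlapped scr, held no match to any of these motifs. They are not printed, nor is the window of Acacb. Over the 250 bases before the start, the sterol regulatory element was found in 1 of the 12 windows, the downstream one of Mlxipl, and in 1.05% of 32851 windows of all genes. The E-box was found in the upstream window of Mlxipl and in 6.02% of all windows. The CCAAT box was found in 6 of the 12 windows, of Acacb, Fasn, Me1, Mlxipl and Srebf1, and in 33.8% of all, and in Fasn it occurred 3 times, with overlapping matches on opposite strands in the run CCAATTGG. The GC box was found in 5 of the 12, of Acly, Me1, Mlxipl and Srebf1, and in 32.7% of all, with 4 matches before Acly and none before Fasn. Matches are letters in the sequence, and binding was not measured.

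Around the 10 genes, 57 further genes of the pathway were grouped by role, of which 56 had a row and 49 were tested. Of the 49, 4 fell and 0 rose in the edgeR quasi-likelihood test, while 5.23% of all genes fell and 5.4% rose, and the median log2 fold change was -0.14. The genes that fell were Idh1, Hlcs, Elovl2 and Cbr4. When knockdown 50-5 was left out, only Cbr4 was still called of the 49, while 3.01% of all genes were, 1.2% lower and 1.81% higher, and 0 members were called. When knockdown 25-3 or 50-2 was left out, 0 were called by the same test, with 11 of the 49 at an unadjusted p under 0.05 in each case. Of all genes, 259 of 11544 were called without 25-3 and 131 of 11529 without 50-2. In the same order, 2688 and 2483 of all genes had an unadjusted p under 0.05 by that test.

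**Figure D3:**
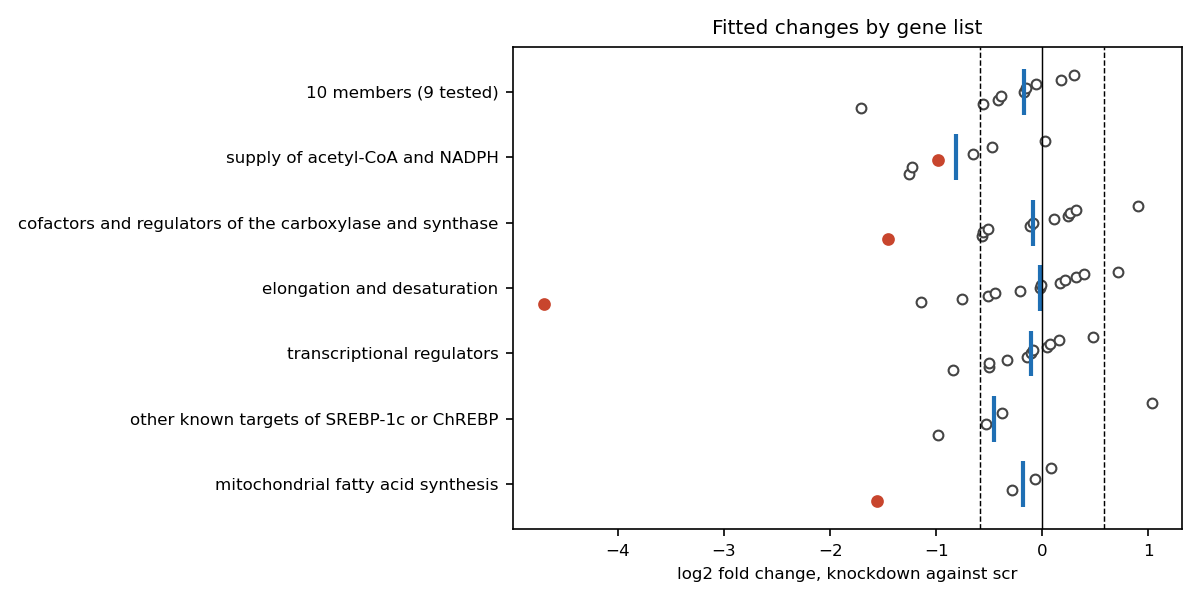
Log2 fold change of knockdown against scr for each tested gene, 1 point per gene, by list, with the list's median as a blue bar, dashed lines at a fold change of 1.5 and filled red points for genes that passed both thresholds. The median of the supply list lies at -0.81, and the other medians lie between -0.46 and -0.02.

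The list that stood lowest was the supply of acetyl-CoA and NADPH, with a median log2 fold change of -0.81 over 6 tested genes, against -0.01 over all genes. Of the 6, 1 fell and 0 rose, while 5 had an unadjusted p under 0.05, as 3641 of 11577 genes did, and 5 lay below both scr libraries in all knockdown libraries, as 24.5% of all genes did. Idh1, cytosolic isocitrate dehydrogenase and a source of NADPH (chromosome 1, 65158616 to 65186479), had an RPKM of 84.9 and 127 in scr, 54.6, 54.9 and 53.8 in knockdown and 81.6 in wt. It fell by 0.98 on the log2 scale (FDR 0.0324 and standard error 0.187 in edgeR's quasi-likelihood test), from 106 ± 30.1 (SD, n = 2 libraries) to 54.4 ± 0.591 (SD, n = 3). Its FDR was between 0.102 and 0.134 when a knockdown library was left out.

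Another 4 genes of this list lay lower without passing the test. G6pdx, the entry enzyme of the pentose phosphate pathway, had an RPKM of 40.7 and 87.1 in scr, 29.1, 24.7 and 28.4 in knockdown and 27.1 in wt (log2 fold change -1.23, FDR 0.0613). Acss2, which makes acetyl-CoA from acetate, had 3.20 and 4.50 in scr, 1.80, 1.20 and 1.87 in knockdown and 3.22 in wt (-1.26, FDR 0.0534). Slc25a1, the mitochondrial citrate carrier, had 47.6 and 41.3 in scr, 28.4, 33.6 and 23.9 in knockdown and 45.6 in wt (-0.65, FDR 0.0708). Thus wt was at the level of scr for Acss2 and Slc25a1 and at that of knockdown for G6pdx. Slc25a1 lies on chromosome 16, where the 365 tested genes other than Hlcs had a median log2 fold change of -0.47. Me2, mitochondrial malic enzyme, had a log2 fold change of -0.47 (FDR 0.128). Pgd, the enzyme that yields the other NADPH of the pentose phosphate pathway, had an RPKM of 41.7 and 62.4 in scr and of 55.7, 53.4 and 52.1 in knockdown (0.03, FDR 0.924). With DESeq2, Acss2, G6pdx and Slc25a1 were called as well as Idh1, as were 2322 of all 11577 genes.

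**Figure D4:**
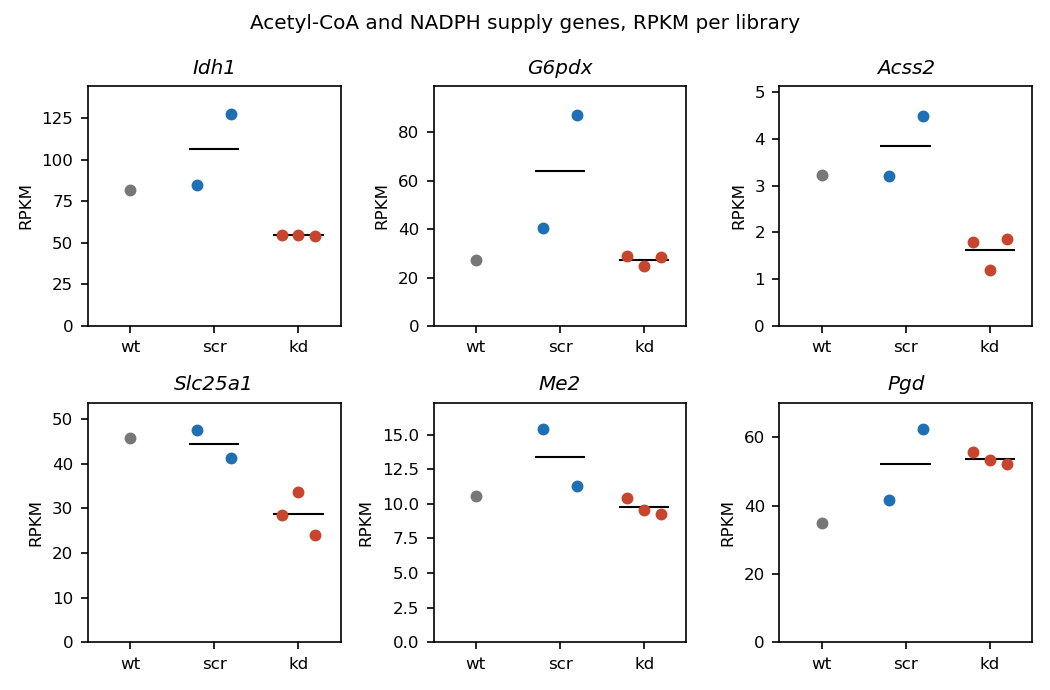
RPKM of 6 genes that supply acetyl-CoA or NADPH in each library, with axes from 0, grey for wt, blue for scr and red for knockdown (kd), and black lines at group means. The 3 knockdown points lie below both scr points for every gene except Pgd.

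Among the cofactors and regulators of the carboxylase and synthase, 1 of 11 tested genes fell and 0 rose. Hlcs, the ligase that attaches biotin to the carboxylases (chromosome 16, 94129306 to 94313563), had an RPKM of 3.72 and 2.34 in scr, 1.07, 1.303 and 0.981 in knockdown and 3.47 in wt. It fell by 1.45 on the log2 scale (FDR 0.0324 and standard error 0.278 in edgeR's quasi-likelihood test), in a window of 10 Mb whose 53 other tested genes had a median of -0.78, and its FDR was between 0.102 and 0.123 when a knockdown library was left out. With the label number, 25 or 50, as a term in the fit, Hlcs was no longer called (-1.38, FDR 0.0648). Mid1ip1, which promotes polymerization of the carboxylase, had 138.7 and 139.9 in scr, 98.7, 90.1 and 96.6 in knockdown and 97.1 in wt. Its FDR was 0.0391 and its log2 fold change of -0.56 was just short of the fold threshold. The AMPK subunits Prkaa1, Prkaa2, Prkab1, Prkab2, Prkag1 and Prkag2, of the kinase that phosphorylates and inhibits the carboxylases, had log2 fold changes between -0.51 and 0.90, and none was called. Thrsp, a partner of Mid1ip1 known from lipogenic tissue, had 0 counts in every library.

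Of 13 tested genes of elongation and desaturation, 1 fell and 0 rose, and the median log2 fold change was -0.02. Elovl2, which lengthens polyunsaturated fatty acids (chromosome 13, 41182382 to 41220403), stood at 10.8 RPKM in scr 25-2 and at 42.5 in scr 50-1, 1.82, 0.750 and 0.526 in knockdown and 21.9 in wt. It fell by 4.70 on the log2 scale (FDR 0.0218 and standard error 0.767 in edgeR's quasi-likelihood test). Leaving out scr 25-2 gave -5.36 and leaving out scr 50-1 gave -3.40, and the FDR was between 0.0586 and 0.107 when a knockdown library was left out. With the label number, 25 or 50, as a term in the fit, Elovl2 was no longer called (-4.73, FDR 0.0521). In the common elongation cycle no gene was called, Hsd17b12 being at 132% of the scr mean (log2 fold change 0.39, FDR 0.0885) and Tecr having a log2 fold change of -0.45 (FDR 0.0702). Fads1 and Fads2, the desaturases of polyunsaturated fatty acids, had log2 fold changes of 0.21 and -0.51 (FDR 0.540 and 0.106).

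Of 11 transcriptional regulators beside Srebf1 and Mlxipl, 0 were called in the edgeR quasi-likelihood test, with 2 at an unadjusted p under 0.05. Srebf2, which encodes the SREBP of cholesterol synthesis, had an RPKM of 36.1 and 58.8 in scr and of 47.7, 57.4 and 45.5 in knockdown (log2 fold change 0.07, FDR 0.871). Scap, the escort of the SREBPs, had a log2 fold change of 0.16, and Insig1 and Insig2, which retain that complex in the endoplasmic reticulum, had 0.04 and -0.09. Nr1h3, which encodes LXR alpha, an activator of Srebf1, differed more between the scr libraries (11.01 and 1.55 RPKM) than between the groups (log2 fold change -0.84, FDR 0.510).

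Other genes known as targets of SREBP-1c or ChREBP did not share a direction, and 0 of 4 tested were called by edgeR, with 3 at an unadjusted p under 0.05. Gpam, the first enzyme of glycerolipid synthesis, had an RPKM of 51.8 and 34.8 in scr and of 26.3, 17.0 and 23.0 in knockdown (log2 fold change -0.98, FDR 0.0635). Pklr, liver pyruvate kinase, had 9.41 and 4.16 in scr and 14.1, 14.9 and 13.1 in knockdown (1.03, FDR 0.113). In both, the knockdown libraries lay apart from both scr libraries, below for Gpam and above for Pklr. DESeq2 called both, as it did 2322 of all 11577 genes.

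Mitochondria hold a fatty acid synthesis pathway of their own, of which 4 genes were tested and 1 fell. Cbr4, a subunit of its ketoacyl reductase (chromosome 8, 61487734 to 61503500), had an RPKM of 33.2 and 27.7 in scr, 9.28, 11.6 and 10.4 in knockdown and 34.7 in wt. It fell by 1.56 on the log2 scale (FDR 0.0102 and standard error 0.181 in edgeR's quasi-likelihood test), to 34.1% of the scr mean, and its FDR was 0.0537 without knockdown 25-3 and 0.0551 without 50-2. The 17 other tested genes within its window of 10 Mb had a median log2 fold change of -0.36. Mcat, Oxsm and Mecr, of the same pathway, had log2 fold changes of 0.08, -0.07 and -0.29 and were not called.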

How the data were processed

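RNA-seq libraries were made from Hepa1-6 cells after ribosomal RNA depletion. Reads were aligned by the authors to mm10 with TopHat2 and counted per gene with HTSeq against RefSeq. The deposited read counts were not normalized. The authors also deposited RPKM values with TMM-scaled library sizes, which were checked to be proportional to count per kilobase of exon within each library. Each library column was matched to its sample by name, and 0 were left unmatched.

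For the comparison, edgeR 4.0.16 (R 4.3.3, TMM, quasi-likelihood test) was applied to those counts, with Benjamini-Hochberg adjustment over every gene that passed an RPKM of 1 in any library compared. A call needed an FDR under 0.05 together with a 1.5-fold difference either way, the thresholds of the study. All 3 libraries labelled knockdown were compared with both scr libraries. The study used clones sh1 and sh2, whose RPKM values in its gene list equal those of libraries 50-2 and 25-3, so the fit without 50-5 matches its samples. Standard errors are the absolute log2 fold change over the square root of F, and 95% intervals use the degrees of freedom of that test. The common biological coefficient of variation was 0.272. Genes named are all 10 members, Midn and every related gene that was called, and others were chosen after their values were seen. The members and lists were chosen with earlier results of these data known. Alternatives used DESeq2 1.42.0, limma 3.58.1 with 0.1 or 1 added to RPKM before log2, other library sizes and filters, wt as a further control, the number in the labels as a term, and each library left out. The fit was tested on simulated data. 1 listed name, Hsd17b8, was not analysed here.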

Additional observations from a re-analysis of the deposited data

How the results depend on the processing

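Over 14 alternatives, 13 gave 0 called genes among the 10 fatty acid synthesis genes. Without scr 25-2 there were 3, all lower in knockdown (Me1, Srebf1 and Mlxipl), in a fit against scr 50-1 alone, where the knockdown libraries give the spread and Mlxipl was tested only because scr 50-1 passed the filter, so the range with each library left out was 0 to 3. No member was called in the opposite direction under any alternative. The count over all genes, 1230, became 2322 with DESeq2 and 807 once the label number (25 or 50) entered as a term, and ranged from 131 to 2273 with each library left out (131 without knockdown 50-2, 259 without 25-3, 346 without 50-5 and 2273 without scr 25-2). The count of the 49 related genes, 4, became 9 with DESeq2 and 7 with wt added to the scr group, and ranged from 0 (without knockdown 25-3 or 50-2) to 10 (without scr 25-2). The cause of these shifts was not tested. Without knockdown 50-2 the FDR of Midn itself was 0.0525 in the edgeR quasi-likelihood test. By counts in place of RPKM, Scd2 was 76.85% of both desaturases in knockdown. With the label number as a term, Cbr4, Idh1 and Elovl7 of the related genes were called, and Elovl2 and Hlcs were not. No paired analysis was possible because no full replicate number (25-2 and 50-1 against 25-3, 50-2 and 50-5) occurs in both groups, and the leading 25 or 50, whose meaning the labels do not give, was used only as that term. Depth limits Acacb and Mlxipl, with 288 and 225 reads over 6 libraries.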
